A study of Mus musculus with 12 samples.

Results

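The baseline transcriptome of fully differentiated murine brown adipocytes was described from the vehicle-treated cultures alone. The series holds 12 RNA-seq libraries, and the 6 vehicle libraries (replicates 1 to 6) were used, with all 14775 genes of the expression table ranked by their mean normalised count. The 6 libraries of cells treated for 4 h with 1 pM chlorpyrifos were not used here. All libraries came from TMCON cells, brown preadipocytes of the mouse immortalized with SV40, and all cells were kept for 2 d in induction medium (IBMX, indomethacin, dexamethasone, the thyroid hormone T3 and insulin) and for 7 d in medium with T3 and insulin. On day 9 they spent 4 h in Krebs-Ringer bicarbonate buffer with HEPES, calcium and fatty-acid-free albumin, with dimethyl sulfoxide (DMSO) as the vehicle. The cells are therefore 1 immortalized line in culture, without nerves, vessels or immune cells, and were in a buffer without serum when RNA was taken. The sources do not say whether the 6 replicates were separate cultures or wells of 1 culture, so the SDs given below may be technical.

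Brown adipocytes burn fatty acids and glucose to make heat. Noradrenaline acts through the beta3-adrenergic receptor and cyclic AMP, lipases release fatty acids from many small lipid droplets, and uncoupling protein 1 lets protons return across the mitochondrial inner membrane without making ATP. Brown fat is accordingly known for dense mitochondria, high respiratory chain gene expression and high lipid turnover. Many of the proteins involved exist as several isoforms encoded by separate genes, and which isoform a tissue uses is part of its identity.

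Values are DESeq2-normalised read counts, and they are compared between libraries for the same gene. Levels of different genes were compared per length, as TPM, the normalised count divided by the summed exon length of the gene and scaled to the same total in every library. Every value was a whole number of reads in units of its library, and the 6 libraries held 7875502 to 12100594 reads in genes, with replicates 1 to 3 at 7875502 to 8529496 and replicates 4 to 6 at 11282895 to 12100594. Replicate 2 stood apart. The leading principal component took up 41.0% of the variance, and on it replicate 2 scored 37.3 and the other 5 libraries scored -15.5 to 2.82. Across genes, log2 values correlated at r = 0.977 to 0.985 in pairs that included replicate 2 and at 0.987 to 0.994 in the other pairs. No pair differed by as little as sampling noise, since the chi-square per degree of freedom was 3.86 or more in every pair, and all 6 libraries were counted.

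Stearoyl-CoA desaturase 1 (Scd1, chr19:44394455-44407879 in GRCm38), which makes monounsaturated fatty acids, had the highest mean of all genes, at 211951 ± 30185 normalised counts (SD, n = 6), or 2.06% of the total. Its values in replicates 1 to 6 were 202397, 268930, 178233, 205178, 210830 and 206139. Replicate 2 was the highest by a wide margin, and without it the mean was 200555 ± 12843 (n = 5). Second was mt-Co1, the mitochondrially encoded catalytic subunit of cytochrome c oxidase, with 161838, 127191, 166988, 246661, 190537 and 240781, which put it above Scd1 in replicates 4 and 6. Cytochrome b (mt-Cytb) averaged 57239 ± 10724. The nuclear gene for the beta subunit of ATP synthase (Atp5b) averaged 56427 ± 1565 and was among the steadiest of the abundant genes, with a coefficient of variation (CV) of 2.77%.

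The rest of the top 20 mixed energy metabolism with matrix genes. Basigin (Bsg), a partner of monocarboxylate transporters, averaged 43777 ± 4409.8. The glycolytic enzymes pyruvate kinase (Pkm) and aldolase A (Aldoa) averaged 32254 ± 750 and 32063 ± 1368. Fatty acid-binding protein 4 (Fabp4) averaged 29337 ± 2143 and lipoprotein lipase (Lpl), which frees fatty acids from circulating triglyceride, 28521 ± 2677. Collagen IV alpha 1 (Col4a1), fibronectin (Fn1) and collagen I alpha 1 (Col1a1) closed the list at 26375 ± 2737, 25101 ± 4357 and 24516 ± 6844. Gm42418, annotated as a long non-coding RNA, held rank 5 at 47535 ± 10825, from 31014 in replicate 5 to 61056 in replicate 2. Which RNA its reads came from was not tested.

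**Figure D1:**
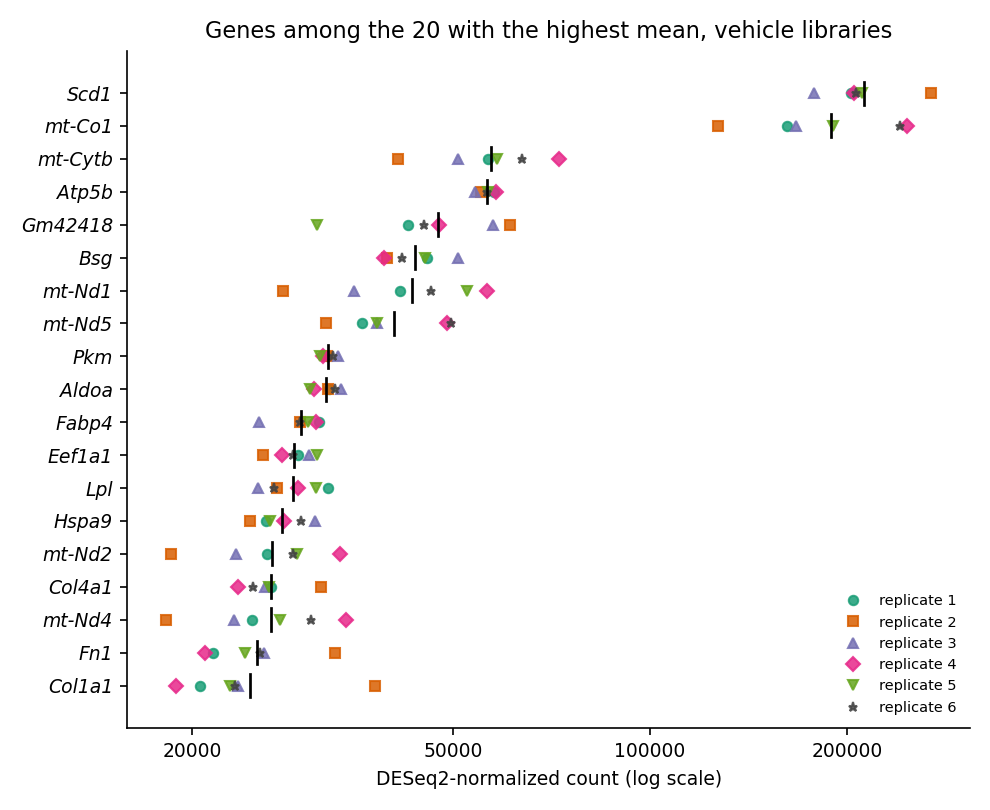
Normalised counts (log scale) of genes from the 20 with the highest mean in the vehicle libraries, with 1 symbol per replicate and a black bar at the mean of the 6. Scd1 and mt-Co1 sat above all others, the mitochondrially encoded genes were lowest in replicate 2, and Col1a1, Fn1 and Scd1 were highest there.

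The counts were not concentrated in a few genes. The first 10 genes held 7.47% of the normalised counts, the first 100 held 20.4%, and 986 genes were needed to reach 50%. A mean of 10 or more was reached by 13545 genes, of 100 or more by 9647 and of 1000 or more by 2433. Of the 20 leading genes, 15 were among the first 20 in every library. Per length the order changed, and 13 genes were shared between the first 20 by counts and the first 20 by TPM. By TPM mt-Co1 led at 39811 ± 9225 TPM, followed by mt-Cytb at 16303 ± 2830.1 TPM, mt-Nd1 at 14745 ± 3559 TPM and Scd1 at 14161 ± 2157 TPM. Short genes entered the TPM list, among them metallothionein 2 (Mt2, 3708 ± 459 TPM) and cytochrome c oxidase subunit 6A1 (Cox6a1, 3636 ± 159 TPM). Gm23935, annotated as a miRNA gene of 57 bases, held rank 5 by TPM at 8654 TPM with a mean of 1511 counts, and such short annotations make a TPM value unreliable.

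By gene class, the 13 protein genes of mitochondrial DNA held 3.75 ± 0.817% of the counts (SD, n = 6) and 9.40% of the TPM. The share was 2.55% in replicate 2, 3.46 and 3.32% in replicates 1 and 3, and 3.89 to 4.805% in replicates 4 to 6, the libraries with more reads. The 31 collagen genes held 1.67 ± 0.268%, and the 83 genes of cytosolic ribosomal proteins 1.23 ± 0.0772%. Pseudogenes, 1151 of them, held 1.44% of the counts and 7.00% of the TPM.

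The mitochondrially encoded genes fell into a high and a low set. mt-Co1, mt-Cytb and the complex I subunit genes mt-Nd1, mt-Nd2, mt-Nd4 and mt-Nd5 averaged 26353 to 188999 counts. By contrast mt-Co2, the second catalytic subunit of cytochrome c oxidase, averaged 539 ± 134, mt-Co3 343 ± 96.7, and mt-Atp6, a subunit of ATP synthase, 252 ± 59.9. These low values are uncertain, because the mouse genome carries copies of this part of mitochondrial DNA on chromosome 1 and the copies had high counts. Gm28661, a copy of mt-Co2 at chr1:24614885-24615565, matched it at 681 of 681 aligned bases and averaged 7417 ± 639 counts, 13.8 times the mean of mt-Co2. The copies Gm28437 of mt-Co3 and Gm10925 of mt-Atp6 matched at all 783 and 678 aligned bases and averaged 5222 ± 469 and 6471 ± 625.1. A 50-base read from such a stretch is the same in both places. The share of 50-base stretches of the mitochondrial gene that also occur elsewhere was 99.5% or more for these 3 genes, 51.1% for mt-Co1, 62.2% for mt-Nd4 and 0 for mt-Cytb and mt-Nd1. Gm29216, the copy of part of mt-Co1, matched at 486 of 492 bases and averaged 5205 ± 796 counts. The stretches below (GRCm38 sequence from the GENCODE transcripts) are shown because each occurs unchanged in a mitochondrial gene and in its copy on chromosome 1, so no base is marked in capitals.
mt-Co1, chrM:6609-6658, plus strand: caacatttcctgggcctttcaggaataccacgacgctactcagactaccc
mt-Co2, chrM:7329-7378, plus strand: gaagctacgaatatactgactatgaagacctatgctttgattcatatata
mt-Co3, chrM:8974-9023, plus strand: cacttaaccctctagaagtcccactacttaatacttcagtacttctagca

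Part of the low set also varied differently between libraries. mt-Co2 had 650.2, 590.4, 709, 499.8, 363 and 424 counts in replicates 1 to 6, with replicates 1 to 3 all above replicates 4 to 6. mt-Atp8, a small ATP synthase subunit, had 264, 198, 226, 109.8, 53.0 and 81.6, with the same split. mt-Co1, mt-Cytb, mt-Nd1 and mt-Nd5 were instead lowest in replicate 2. Gm20721, a gene annotated as protein-coding, showed the split in the other direction, with 25.6, 43.6, 36.0, 170.3, 166 and 173. What sets replicates 1 to 3 apart from 4 to 6, beyond the number of reads, is not stated in the sources, and its part in these values was not tested.

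Levels of marker lists were then read. Of all 14775 genes, 13844 stood at 1 TPM or more. Reaching 1 TPM does not by itself mark a cell type. All 20 listed genes of general adipocyte differentiation reached 1 TPM or more, led by Fabp4 (2134 ± 162 TPM), adiponectin (Adipoq, 1763 ± 268 TPM) and complement factor D (Cfd, 1146 ± 44.3 TPM). Cfd had 3349, 2986, 3209.9, 3247, 3268 and 3355 counts in replicates 1 to 6, a CV of 4.18%. Leptin (Lep), a hormone of white fat in particular, stood at 3.04 ± 1.18 TPM with 14.1, 37.2, 20.4, 48.5, 31.3 and 36.7 counts, and was the lowest of the 20. Of 25 listed brown adipocyte genes, 22 had a value and all 22 reached 1 TPM or more. The type 2 deiodinase Dio2, glycerol kinase (listed as Gyk) and Bmp8b had no value here and were not analysed.

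Among the brown adipocyte genes the levels spanned from 3.31 TPM for the fatty acid elongase Elovl3 to 2356 TPM for Cidea, a lipid droplet protein that marks brown fat in mice. Cidea was also one of the steadiest, with 8462, 7810.4, 7333, 8148, 8125 and 8402 counts and a CV of 5.22%. The kinase Pdk4, which restrains pyruvate dehydrogenase, averaged 914 ± 117 TPM, the muscle and brown fat form of cytochrome c oxidase subunit 7A (Cox7a1) 887 ± 65.7 TPM, and the amino acid transporter Slc36a2 333 ± 26.7 TPM. The potassium channel Kcnk3 averaged 224 ± 44.4 TPM and was highest in replicate 1. Transcriptional regulators of brown fat stood lower. The early B-cell factor Ebf2 averaged 52.7 ± 7.04 TPM, the coactivator Ppargc1a 45.7 ± 8.46 TPM, Zfp516 27.6 ± 1.503 TPM and Prdm16 9.71 ± 0.913 TPM. Prdm16 had 294, 234, 278, 265, 305 and 288 counts, a range narrower than that of Ppargc1a, which had 885, 1137, 663, 1052, 813 and 991.

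**Figure D2:**
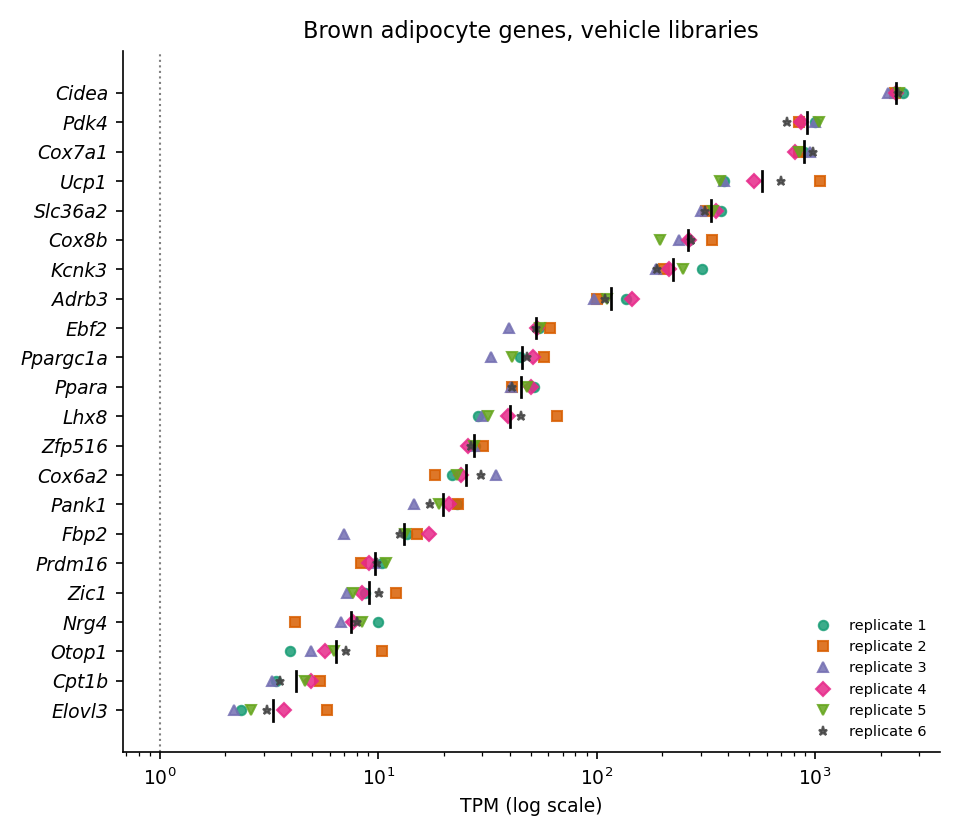
TPM (log scale) of the 22 brown adipocyte genes with a value, with 1 symbol per vehicle replicate, a black bar at the mean of the 6 and a dotted line at 1 TPM. Cidea was highest and Elovl3 lowest, and Ucp1 spread more widely between libraries than its neighbours, with replicate 2 highest.

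Other lists were read in the same way. Of 12 listed white adipocyte genes 8 had a value and all 8 reached 1 TPM. Angiotensinogen (Agt) at 464 TPM and resistin (Retn) at 92.6 TPM were far above the homeobox genes Hoxc8, Hoxc9 and Hoxc10, which stood at 6.68 TPM, 4.89 TPM and 4.04 TPM. Of 9 beige adipocyte genes 6 had a value and 5 of these reached 1 TPM. The preadipocyte and fibroblast list had a value for 16 of 19 genes, and 15 of these reached 1 TPM. Col1a1 (1222 ± 356 TPM) and vimentin (Vim, 1128 ± 133 TPM) led it, while the platelet-derived growth factor receptor Pdgfra, a progenitor marker, averaged 186 ± 52.5 TPM. The summed level of the list was 3553 to 5520.4 TPM. All 15 proliferation genes reached 1 TPM, and their summed level was 1049 to 1290.2 TPM. The proliferation antigen Mki67 averaged 59.5 ± 8.38 TPM, with 1869.8, 1939, 1589, 1699, 2224 and 1667 counts, and topoisomerase Top2a 83.3 ± 13.2 TPM. In a bulk library, fewer cells of a type and less RNA per cell cannot be told apart. Of 12 endothelial genes 3 had a value, at a summed 6.53 to 10.1 TPM, and the defining genes Pecam1, Cdh5 and Kdr were not among them. Of 13 macrophage and leukocyte genes 3 had a value (Cd68, Cd14 and Csf1r), without Ptprc or Adgre1, at a summed 38.02 to 51.8 TPM. All 10 smooth muscle and pericyte genes reached 1 TPM, with smooth muscle actin (Acta2) at 171 ± 35.8 TPM but smooth muscle myosin (Myh11) at 2.74 ± 0.553 TPM. Of 12 skeletal muscle genes only desmin (Des, 28.4 TPM) and Acta1 (4.97 TPM) had a value.

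Isoform use was read from 74 families with 360 listed members. Of these members 281 had a value, 259 at 1 TPM or more and 22 below 1 TPM, which is termed scarce here. Of all 14775 genes, 13844 were at 1 TPM or more. The other 79 had no value and were not analysed. In 57 families a single member held more than 50% of the summed TPM of the family, in 29 more than 75%, and in 18 more than 90%. These counts include 6 families with a single member with a value, which hold 100% by construction, and over the other 68 families they were 51, 23 and 12. The same member led in all 6 libraries in 61 of the 68 families. In 12 families the ranges of the first and second member over the libraries overlapped. Such overlap compares different libraries, and 1 member can still lead within each, as Mt2 did over Mt1 in all 6. Without the correction for length, 55 of the 68 families kept the same leader.

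**Figure D3:**
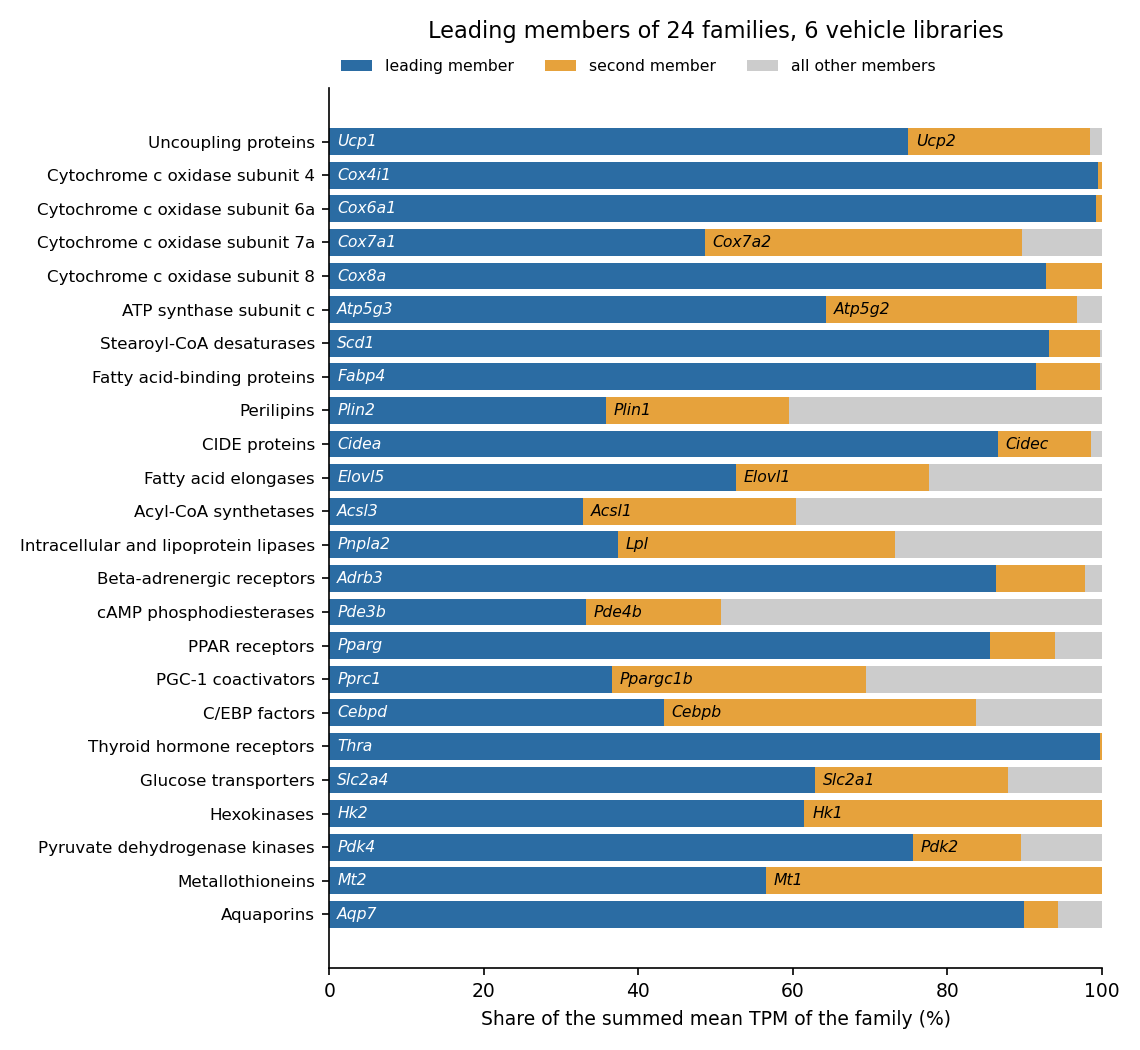
Share of the summed mean TPM (%) held by the leading member (blue), the second member (orange) and all other members with a value (grey) in 24 of the 74 families. Scd1, Fabp4, Cox4i1, Cox6a1, Cox8a and Thra each held more than 90% of their family, whereas perilipins, PGC-1 coactivators and cAMP phosphodiesterases were shared out between members.

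Among the uncoupling proteins, Ucp1, the thermogenic proton carrier of brown fat (chr8:83290352-83298452), led with 569 ± 270.4 TPM and 74.9% of the family. Its counts in replicates 1 to 6 were 1881, 5204, 1924, 2690.5, 1821 and 3579.8, so that replicate 2 was highest, replicates 6 and 4 followed, and replicates 1, 3 and 5 lay close together at 1821 to 1924. The share of Ucp1 ranged over 63.7 to 84.8% between libraries and was 71.2% without replicate 2. Ucp2, a mitochondrial carrier found in many tissues, was second at 179 ± 15.1 TPM, with counts of 4051, 3756, 3535, 3951, 4208 and 3508. By counts without length correction Ucp2 was above Ucp1 on average, and below it in replicates 2 and 6. Ucp3, known from skeletal muscle and brown fat, was scarce at 0.603 ± 0.212 TPM with 5.13, 7.70, 3.60, 8.51, 6.09 and 3.67 counts. The brain-type carriers Slc25a14 and Slc25a27 stood at 7.27 TPM and 3.23 TPM. Of the adenine nucleotide translocases, which exchange ADP and ATP, Slc25a5 held 59.4% and Slc25a4 40.6%.

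Subunits of cytochrome c oxidase with alternative isoforms were mostly of the ubiquitous form. Cox4i1 held 99.5% of subunit 4, Cox6a1 99.3% of subunit 6A, and Cox6b1 99.6% of subunit 6B. Cox8a averaged 3354 ± 203 TPM and Cox8b, the form of muscle and brown fat, 262 ± 46.1 TPM, or 7.24% of the pair. Subunit 7A differed, with the muscle and brown fat form Cox7a1 at 48.6% and the widespread form Cox7a2 at 41.1%. Their ranges, 809 to 976 TPM and 643 to 822 TPM, overlapped. The heart and muscle form Cox6a2 stood at 25.2 ± 5.93 TPM. For ATP synthase subunit c, Atp5g3 held 64.2%, Atp5g2 32.5% and Atp5g1 3.25%. All 36 nuclear genes of complex I and all 21 of complexes III and IV had a value of 1 TPM or more, with median levels of 266 and 739 TPM. All 18 citric acid cycle genes did so too, with Suclg2 lowest at 79.1 TPM.

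In lipid synthesis, Scd1 held 93.2% of the stearoyl-CoA desaturases, Scd2 6.59% and Scd3 0.258%. Of the enzymes before it, ATP citrate lyase (Acly) averaged 911 ± 60.2 TPM and fatty acid synthase (Fasn) 521 ± 102 TPM. Fasn had 17378, 20987, 11449.7, 20573, 17155 and 17152 counts and was lowest in replicate 3. The elongases of long-chain fatty acids stood below Scd1 and Scd2, with Elovl5 at 85.1 ± 7.21 TPM and 52.6% of the family, Elovl1 at 40.3 ± 2.79 TPM, Elovl6 at 30.8 TPM, Elovl3 at 3.31 TPM and Elovl7 scarce at 0.867 TPM. In triglyceride assembly, the mitochondrial acyltransferase Gpam held 62.2% of its family, Agpat2 50.2%, Lpin1 79.6% and Dgat1 58.6%. Dgat2 held most of the remainder of its family at 39.7%.

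Of the genes for lipid droplet coat proteins, Plin2, found on droplets of most cells, led at 486 ± 56.0 TPM and 35.8%, followed by the adipocyte forms Plin1 at 23.6% and Plin4 at 21.9%. Plin5, which links droplets to mitochondria in oxidative tissues, stood at 22.0 ± 5.19 TPM. Of the CIDE proteins Cidea held 86.6%, Cidec 12.1% and Cideb 1.34%. Of the fatty acid-binding proteins Fabp4 held 91.4% and Fabp5 8.39%, and Fabp3, the heart form that is known from cold-exposed brown fat, had 10.3, 6.42, 7.21, 11.1, 4.35 and 10.1 counts and 3.26 TPM. The first enzyme of lipolysis (Pnpla2, 924 ± 146 TPM) and lipoprotein lipase (Lpl, 889 ± 91.5 TPM) overlapped at the head of the lipases. Hormone-sensitive lipase (Lipe) averaged 158 ± 19.6 TPM and monoglyceride lipase (Mgll) 163 ± 24.4 TPM. The inhibitor of Pnpla2, G0s2, stood at 9.20 TPM and its activator Abhd5 at 39.0 TPM.

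For fatty acid oxidation, 17 of 17 listed genes reached 1 TPM, with Acaa2 (1701 ± 139 TPM), Acadvl (1658 ± 123.4 TPM) and Etfa (1429 ± 83.1 TPM) highest. The entry step of carnitine palmitoyltransferase 1 was low beside them. Cpt1a, the liver form, led its family with 16.3 ± 3.33 TPM and 61.01%. Cpt1c, a form best known from brain, was second at 23.3%, and Cpt1b, the muscle and brown fat form, had 34.6, 55.2, 33.6, 51.9, 46.9 and 37.6 counts and 4.20 TPM. The Cpt1b value is uncertain, since 81.4% of its exon length overlaps the read-through gene Gm44502. The shares, the order and the low level of the Cpt1 family are uncertain with it. Etfb at 11.6 TPM is likewise uncertain, as 58.2% of its exon length overlaps Gm45233. Acyl-CoA synthetases were led by Acsl3 (130.4 to 175 TPM) and Acsl1 (91.8 to 138 TPM), whose ranges overlapped, and by counts Acsl1 was first. Acot13 and Acot2 led the thioesterases, also with overlapping ranges, and Acot4 and Acot6 were scarce at 0.228 TPM and 0.351 TPM.

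Adrb3, the beta3-adrenergic receptor of adipocytes, averaged 116 ± 19.5 TPM and held 86.3% of the beta-adrenergic receptors, and Adrb1 held 2.18%. The counts of Adrb3 were 1384, 1015, 1003, 1531, 1135 and 1158. Among 6 listed alpha receptors only Adra1d (5.11 TPM) and Adra2a (scarce, 0.344 TPM) had a value. Adenylyl cyclases, which make cyclic AMP, were led by Adcy6 at 51.3% and Adcy3 at 34.4%, while Adcy1, Adcy8 and Adcy10 were scarce at 0.129 TPM, 0.575 TPM and 0.358 TPM. The phosphodiesterases, which break it down, were led by the insulin-regulated Pde3b at 33.2%. Protein kinase A was mostly the catalytic subunit Prkaca (91.0%) with the regulatory subunit Prkar2b (60.8%), the form typical of adipose tissue. Mapk14 held 80.2% of the p38 kinases and Mapk12 was scarce. The AMPK subunits in the lead were Prkaa1, Prkab1 and Prkag1, at 70.7%, 62.9% and 76.9%.

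Pyruvate dehydrogenase kinase was mostly Pdk4, at 75.5%. Of the nuclear receptors, Pparg, the master regulator of adipocytes, averaged 637 ± 34.0 TPM, with 5981, 5302, 5399.9, 6188, 5828 and 5849 counts, and held 85.5% of the PPARs. Ppard was second at 8.43%. Ppara, the receptor tied to fatty acid oxidation, stood at 45.3 ± 5.14 TPM. The partners Rxrb and Rxra held 65.6% and 27.6% of the retinoid X receptors. Thyroid hormone receptors were almost wholly Thra, at 104 ± 4.99 TPM and 99.7%, and Thrb was scarce with 7.69, 2.57, 4.81, 10.2, 8.69 and 4.59 counts. Dio3, which inactivates thyroid hormone, was the deiodinase with a value, at 4.04 ± 1.06 TPM. The 3 coactivators Pprc1, Ppargc1b and Ppargc1a lay close together at 54.9 TPM, 49.2 TPM and 45.7 TPM, and Pprc1 led in 3 of 6 libraries. Cebpd and Cebpb overlapped at the head of the C/EBP factors (363 to 539 TPM and 306 to 560 TPM), with Cebpa at 85.6 TPM. Ebf1 and Ebf2 overlapped as well, and Ebf4 was scarce.

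In glucose metabolism, the insulin-regulated transporter Slc2a4 averaged 277 ± 19.8 TPM and held 62.9%. Slc2a1, the transporter of most cells, held 24.96% and varied more, with 832, 1363, 1735, 718, 829.4 and 1604 counts (CV 37.5%). Slc2a12 and Slc2a13 were scarce. Hexokinase was Hk2 (61.5%) and Hk1 (38.5%), phosphofructokinase mostly the liver form Pfkl (64.1%), aldolase the A form (Aldoa, 97.7%) and lactate dehydrogenase Ldha (63.7%) with Ldhb (36.3%). Pkm and Pgam1 were the only members of their families with a value. Eno1 led the enolases at 62.3%, and the 32.0% of Eno1b is uncertain because 85.2% of its 50-base stretches occur elsewhere, mostly in Eno1. Irs2 held 91.3% of the insulin receptor substrates, and Akt1 and Akt2 overlapped. Creatine kinase was represented by Ckb at 3.98 ± 1.20 TPM, with 25.6, 20.5, 32.4, 41.7, 42.6 and 49.5 counts. Myoglobin (Mb), the oxygen-binding protein of muscle that brown fat also makes, averaged 1179 ± 254 TPM and had 6659, 3264, 5501, 5838, 5885 and 5187 counts, lowest in replicate 2.

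Actb held 74.3% of the actins, Myh9 85.7% of the myosin heavy chains with a value, Tubb5 63.7% of the beta tubulins and Tpm4 83.9% of the tropomyosins. Tuba1b and Tuba1c were level at 138 TPM and 138 TPM, and they are uncertain, as 66.7% and 52.7% of their 50-base stretches occur elsewhere, mainly in each other. Collagens were spread over many chains, and Col6a1 (20.3%), Col1a1 (17.2%) and Col4a1 (16.3%) headed them, while Col2a1 of cartilage was scarce. The metal-binding metallothioneins Mt2 and Mt1 averaged 3708 ± 459 TPM and 2853 ± 217 TPM. Mt2 was higher in each library although the ranges overlapped, and Mt1 was first by counts. The iron store ferritin was led by Fth1 at 65.8%, with 21549.5, 21764, 21982, 22798, 21494 and 22543 counts and a CV of 2.44%, but the share is uncertain, since 50.9% of the 50-base stretches of the other member, Ftl1, occur elsewhere. Peroxiredoxins were shared out between all 6 members, and the first of them, Prdx5 at 22.9% and Prdx1 at 22.4%, overlapped. Aqp7, the glycerol channel of adipocytes, held 89.96% of the aquaporins, Cav1 72.3% of the caveolins and Cavin1 66.7% of the cavins. Of the retinaldehyde dehydrogenases Aldh1a7 held 69.5% and Aldh1a3 was scarce. Lrrc8b led the LRRC8 channel subunits at 46.0%, and the 10.7 TPM of the essential subunit Lrrc8a is uncertain, with 66.2% of its exon length shared with Gm28035. The lead and the share of Lrrc8b are uncertain with it.

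The spread between the 6 vehicle libraries was small for most genes. Over the 13545 genes with a mean of 10 or more, the median CV was 10.99%, and 44.0% of genes stayed under 10%. Counting error alone gives a median CV of 6.10% at this depth, and 7.72% remained after it was taken off. For genes with means of 10 to 100 the median CV was 22.5%, of which counting error alone gives 18.1%. At means of 100 to 1000 the median CV was 9.34% and counting error gives 5.52%. Low members such as Ucp3, Thrb, Fabp3 and Fgf21 rest on a few reads per library. Replicate 2 held the highest or the lowest value in 51.9% of genes, against 22.6 to 41.5% for each other library, and without it the median CV was 9.63%.

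**Figure D4:**
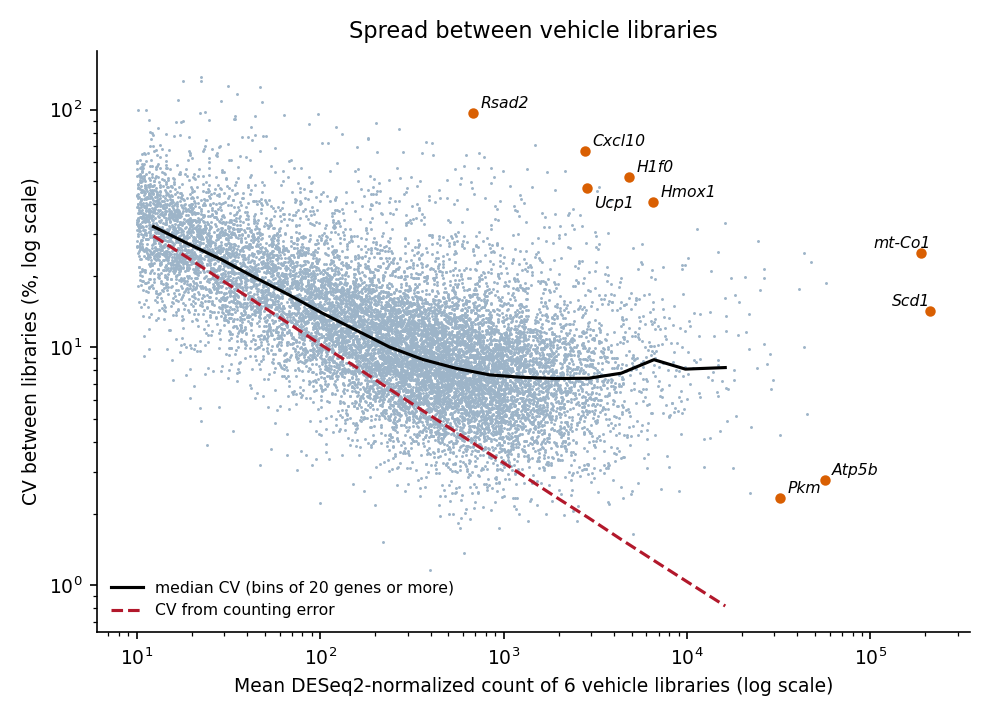
CV between the 6 vehicle libraries (%, log scale) against the mean normalised count (log scale) of each gene with a mean of 10 or more. The solid line is the median CV and the dashed line the CV that counting error alone gives; Rsad2, Cxcl10, H1f0, Ucp1 and Hmox1 lie far above the solid line, and Pkm and Atp5b below its level.

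Among the 10 steadiest genes with a mean of 100 or more were Tmem5 (CV 1.16%), Pld3, Fbxw7, Trir, Gins2, Pelp1, Ctbp1, Dazap1 and Dkc1. For Tmem5 the CV lay below the 5.17% that counting error gives on average, and the CV of each other gene just named lay below its own counting error. Of the 13545 genes with a mean of 10 or more, 2199 (16.2%) had a variance at or under counting error. Such a low CV does not by itself show a gene to be steadier than others. Pkm was the steadiest of the leading 20, with 32166, 32143, 33351, 31651, 31338 and 32874 and a CV of 2.33%.

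The most variable genes with a mean of 100 or more were Rsad2, Hist1h2bc, Apol9b, Ifi44, Cxcl9, Oasl1, Mx1, Apol9a, Cmpk2 and Gm20721. Rsad2, Ifi44 and Mx1 belong to the list of 14 interferon-stimulated genes, which cells switch on when they sense interferon or viral nucleic acid. Rsad2, which encodes the antiviral protein viperin, had 229.6, 1925, 238, 709, 207 and 773 counts in replicates 1 to 6 (CV 97.1%). Ifit1, which binds foreign RNA, had 1250.4, 4142, 1156, 2401, 1224 and 2776, and the chemokine Cxcl10 had 1379, 6044, 1318, 2992, 1434 and 3466. In each, replicate 2 was highest, then 6, then 4, and replicates 1, 3 and 5 were low. All 14 listed interferon-stimulated genes reached 1 TPM, and their summed level was 3075 TPM in replicate 2, 2017 in 6, 1683 in 4 and 892 to 1018 in 1, 3 and 5. The list was drawn up with this pattern known. Median deviations of its genes from their median over libraries were -0.46, 1.26, -0.50, 0.41, -0.72 and 0.69 on the log2 scale in replicates 1 to 6. Without replicate 2 the CV of Ifit1 was 43.6% and that of Rsad2 65.8%, and replicates 6 and 4 remained above replicates 1, 3 and 5 in both genes.

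The order of libraries with replicate 2 highest, then 6, then 4 and then the other 3 was found, after the values were seen, in 12 of the 13 interferon-stimulated genes with a mean of 100 or more, and in 353 of all 9647 such genes (3.66%). It was shared by 3 of 17 brown adipocyte genes, namely Ucp1, Lhx8 and Cox8b. Other lists differed. The order was found in 3 of 13 genes for de novo lipogenesis and 4 of 21 for secreted factors. It was also found in 2 of 12 for preadipocytes and fibroblasts and 2 of 3 for white adipocytes. By contrast it was found in 0 of 19 genes for adipocyte differentiation and 0 of 16 for beta-oxidation. The citric acid cycle list had 0 of 18 and the nuclear complex I list 0 of 36. Ucp1 averaged 2379.5 ± 759 counts without replicate 2 (n = 5), with a CV of 31.9%, against 46.9% with it. The homeobox gene Lhx8 had 218, 499, 232, 309.9, 243 and 358 counts and Agt, the angiotensin precursor, 2111, 4365, 2034, 2619.8, 2235 and 2732. Cidea, Pparg, Prdm16 and Slc36a2 did not have this order. The part of interferon signalling in the Ucp1 values was not tested.

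Promoter sequence was compared because these genes moved together between libraries. In RefSeq (GRCm38.p6), 11 of the 14 interferon-stimulated genes had a promoter, read over the 250 bases before the start. The motif searched was the core of the interferon-stimulated response element, GAAA followed by any 2 bases and a further GAAA, on both strands, with overlapping matches counted. It was present in 6 of these 11 genes (Ifit1, Ifit3, Isg15, Oas1a, Rsad2 and Bst2) and in 936 of all 27025 genes with a promoter (3.46%). Of the 30 most variable genes with a mean of 100 or more, 20 had a promoter and 10 held the motif. Of the 30 least variable, 23 had a promoter and 2 held it. The list was chosen as interferon-stimulated and the variable genes from these same values, so neither share is a test. What made these genes vary was not tested. Cxcl10, which is not on the list, had 1 match, whereas Cxcl9 and Cmpk2, both among the 10 most variable genes, had none, and neither had Ucp1, Lhx8, Otop1 and Agt. The 40-base stretches below are shown to illustrate the match in 5 genes that hold it, on the strand of the gene, with each match in capitals (on the antisense strand the match reads TTTC, 2 bases, TTTC).
Rsad2, chr12:26456548-26456587, minus strand: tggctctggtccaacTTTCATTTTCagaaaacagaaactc
Ifit1, chr19:34640789-34640828, plus strand: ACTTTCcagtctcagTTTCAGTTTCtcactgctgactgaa
Isg15, chr4:156200860-156200899, minus strand: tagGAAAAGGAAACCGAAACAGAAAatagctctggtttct
Bst2, chr8:71537572-71537611, minus strand: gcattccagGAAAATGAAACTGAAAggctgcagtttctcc
Cxcl10, chr5:92349078-92349117, minus strand: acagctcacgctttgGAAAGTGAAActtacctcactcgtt

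The first capitals of the Ifit1 stretch are the end of a further match that begins before it. In Isg15 3 overlapping matches formed 1 continuous run, and in Bst2 2 matches did. A match is a property of the letters and not evidence that a factor was bound. The 20 most variable genes with a promoter also had few CpG pairs, with a median of 4.5 in 250 bases, against 22 for the 23 least variable genes with a promoter and 17 for the 9662 genes with a mean of 10 or more and a promoter.

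**Figure D5:**
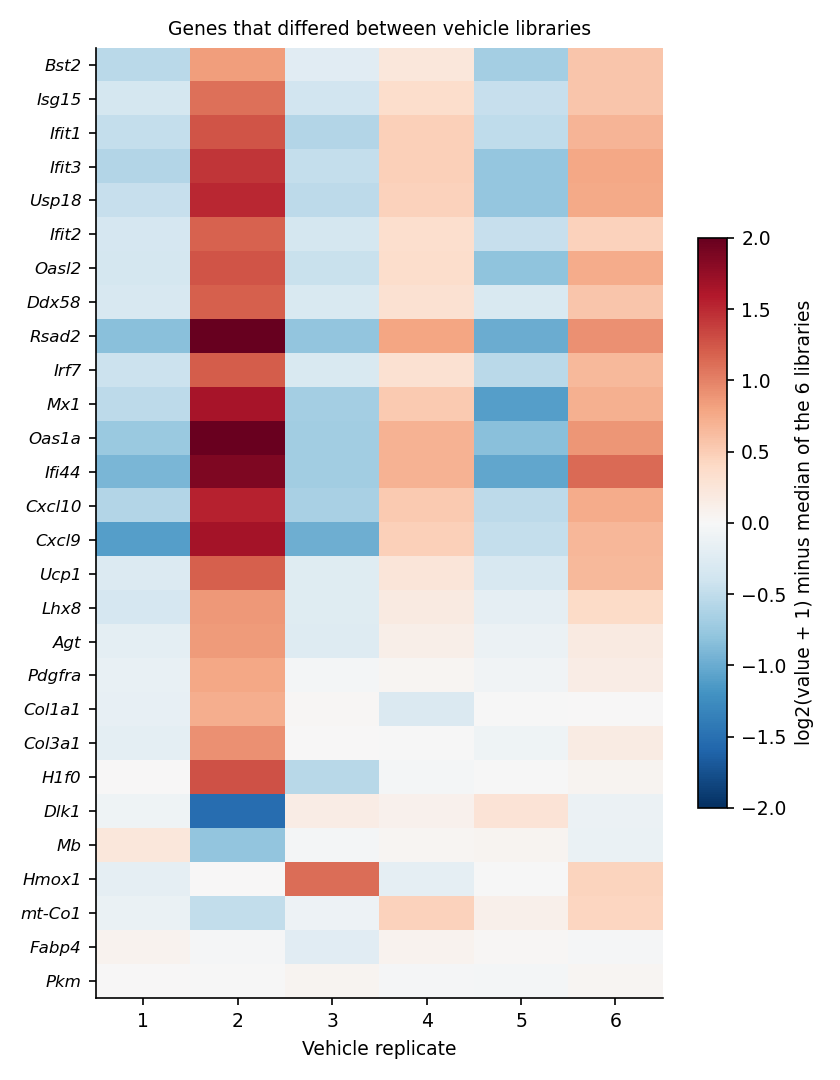
Deviation of each gene in each vehicle replicate from its median over the 6 libraries, as log2(value + 1), red for higher and blue for lower. The interferon-stimulated genes shown, Cxcl10 and Cxcl9 were highest in replicate 2, then in replicates 6 and 4, Ucp1 and Lhx8 shared this order at a smaller size, and Pkm hardly varied.

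Replicate 2 differed in other genes too. Of the 9647 genes with a mean of 100 or more, 307 were over 1.5-fold above their median over libraries in replicate 2 and 77 were as far below it. The linker histone gene H1f0 had 4091, 9894, 2781, 3976, 4086 and 4254 counts in replicates 1 to 6. Hist1h1c, another linker histone gene, had 1125, 3598, 670.3, 1097, 1105 and 1299, and in both replicate 2 was far above the rest. Of the 16 preadipocyte and fibroblast genes with a value, 10 were highest in replicate 2 and 3 were lowest there. Of all 13545 genes with a mean of 10 or more, 3639 were highest in replicate 2 and 3390 lowest. The trait was not particular to this list, since 11 of 22 brown adipocyte genes and 9 of 13 for de novo lipogenesis were also highest there. In the adipocyte differentiation list 1 of 20 was, and in the nuclear complex I list 0 of 36. Col1a1 had 20547, 37993, 23522, 18898, 22854 and 23282 counts, and Col3a1 had 12463, 26917, 14344, 14076, 13376 and 15989. Without replicate 2 the CV of Col1a1 was 9.24%, against 27.9% with it. Pdgfra had 4594, 8783, 4991, 5245, 4866 and 5700.3. Dlk1, an inhibitor of adipocyte differentiation, had 859, 316, 1007, 968, 1105 and 842 and was lowest in replicate 2, as were vimentin (Vim), with 16122, 13183, 17835, 15633, 18685 and 16825, and Mfap5, with 71.8, 57.8, 78.1, 59.6, 66.1 and 80.7. The preadipocyte and fibroblast list had median deviations of -0.12, 0.47, 0.01, -0.08, -0.03 and 0.14, with replicate 2 highest, while the adipocyte differentiation list had 0.04, -0.08, -0.17, 0.10, 0.06 and -0.02. Many, but not all, markers of progenitors and the share of mitochondrially encoded genes thus differed in replicate 2, as the interferon-stimulated genes did. The mitochondrially encoded share was highest in replicates 4 and 6 (4.805 and 4.46%), where the interferon-stimulated genes were next highest. What part these differences had in the interferon result was not tested.

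Replicate 3 stood apart in stress and lipid genes. Haem oxygenase 1 (Hmox1), an enzyme of the oxidative stress response, had 4743, 5409, 11629, 4751, 5318 and 7309.9 counts, and the endoplasmic reticulum chaperone Hspa5 had 7577, 8678, 12958, 7949.7, 8867 and 10674, both highest in replicate 3. The stress and unfolded protein response list had median deviations of -0.05, -0.01, 0.21, -0.09, -0.01 and 0.06. In the same library the beta-oxidation list was at -0.24, the brown adipocyte list at -0.22 and the adipocyte differentiation list at -0.17 on the log2 scale, each its lowest of the 6.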

How the data were processed

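RNA of 12 samples was sequenced by the authors as paired-end reads of 50 bases from strand-specific libraries, and the 6 vehicle libraries were used. Per the methods, the authors trimmed reads with Trimmomatic, aligned them to Ensembl GRCm38 with HISAT2, counted exonic reads with htseq-count (reverse strand, minimum alignment quality 10) and normalised with DESeq2. Tool versions and the rule by which genes entered the table are, in the sources used here, not given. The deposited values are a normalised count signal, and the authors' size factors could be removed exactly (100% of values were whole reads within 0.01), which gave the depth. Counting error is the CV that sampling of reads alone gives on average. It is not a floor, since 16.2% of the 13545 genes had a variance at or under it. Another 12 columns of per-sample values (ratios), the group averages, fold changes, percent changes and p-values of the authors and the further sheets were not used. Spreadsheet dates in place of 14 symbols were restored from the gene identifiers.

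TPM was computed here from the summed exon length of GENCODE M21 (same assembly, later release, 14766 of 14775 genes matched) over the genes of the table. Scarce means a mean below 1 TPM, and the spread used genes with a mean of 10 or more. The 20 leading genes by counts and by TPM, the first, second and scarce members of each family, list members, and the 10 most and 10 least variable genes with a mean of 100 or more could be named. Cxcl10, H1f0, Hist1h1c, Enpp2, Gdf15, Mb and the copies of mitochondrial genes were added after their values were seen. A few genes that these rules name are not reported here. Families and lists were chosen with earlier results of these data known. No test between groups was run, since no groups are compared, and single libraries that stood apart were marked by Dixon's gap (95% critical value for 6 samples). Dispersion and TMM scaling were computed with edgeR 4.0.16 in R 4.3.3, all else in Python 3.11.15, and the CV estimates were tested on simulated data. Alternatives covered scaling, length, filters, thresholds and leaving out each replicate.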

Additional observations from a re-analysis of the deposited data

Results flagged for a closer look

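Of 111 values over the 6 vehicle libraries (normalised counts of genes given above, summed TPM of the lists and shares of gene classes), 19 had a single library whose gap to the nearest other was more than 0.625 of the whole range. Chance gives about 1 in 20 for values chosen in advance. Some of the 111, such as H1f0, Hist1h1c, Enpp2 and Gdf15, were added after they were seen, and genes that move together are not independent. The 19 can therefore not be set against that rate. Replicate 2 was the library in 15 of the 19. It was the highest for Scd1 at 268930 normalised counts, Agt at 4365, Col1a1 at 37993, Col3a1 at 26917, Pdgfra at 8783, Rsad2 at 1925, H1f0 at 9894, Hist1h1c at 3598 and Enpp2, a secreted lysophospholipase D, at 6126. Replicate 2 was also highest for the summed TPM of the white adipocyte list (943) and of the preadipocyte and fibroblast list (5520.4), for the collagen share of counts (2.20%) and for the histone share (0.245%). It was lowest for Dlk1 at 316 and for the share of cytosolic ribosomal protein genes at 1.08%. Replicate 3 was highest for Hmox1 at 11629 and for the stress hormone gene Gdf15 at 357, and lowest for Fabp4 at 25306. Replicate 5 was lowest for the share of genes annotated as long non-coding RNA, at 1.04%. Gm42418 is the leading gene of that class, and which RNA its reads came from was not tested.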

How the results depend on the processing

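The first 10 genes held 7.47% of the counts, 13.2% of the TPM, and 5.63% with the mitochondrially encoded genes left out, and 7.30 to 7.58% with each replicate left out in turn. The number of genes with a mean of 10 or more was 13521 to 13566 with a replicate left out. Families led by a member with more than 50% numbered 57, the 6 with a single member included, and 56 to 59 with a replicate left out, and 29 at a threshold of 75%. Scarce members numbered 22 below 1 TPM, 9 below 0.5 TPM and 37 below 2 TPM, and 20 to 23 with a replicate left out. The median CV of 10.99% was 11.8% with no filter on low genes, 9.48% at a minimum mean of 50, 8.90% at 100, 7.72% with counting error taken off and 10.3% as the median tagwise biological CV of edgeR, and 9.63 to 11.4% with a replicate left out, lowest without replicate 2. The log2 deviation of interferon-stimulated genes in replicate 2, 1.26, was 1.12 to 1.25 with deviations from the mean, TMM scaling and a pseudocount of 10. The value without replicate 2 given for single genes was added after seeing the data. No paired analysis was possible because a single group was described and no result comes from a test. Depth limits the members below about 10 counts, where a library holds a handful of reads.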

Other observations

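Of 24 listed secreted factors 23 had a value and reached 1 TPM. Retinol-binding protein 4 (Rbp4), the carrier of vitamin A in blood, led at 2823 ± 175 TPM with 11174, 12635, 10907, 11953, 10835 and 12170 counts in replicates 1 to 6, above Adipoq at 1763 TPM. The matrix protein Sparc averaged 1412 ± 207 TPM and the chemokine Ccl2, which attracts monocytes, 1254 ± 253 TPM. Ccl2 had 3715, 5871, 3417, 4455, 4159 and 4601 counts and was highest in replicate 2. The growth factor Vegfa, which drives vessel growth, averaged 610.2 ± 80.8 TPM, above its relative Vegfb at 262 ± 15.02 TPM. Nrg4 had 182, 75.7, 126, 146, 155 and 152 counts in replicates 1 to 6, lowest in replicate 2. Il6 had 96.2, 307, 148, 152, 127 and 205, highest in replicate 2. Fgf21 had 6.41, 12.8, 7.21, 3.41, 6.96 and 6.42, and rests on so few reads that its 2.49 TPM says only that it was near the limit of this depth.

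Immediate early genes were measurable after 4 h in buffer. Junb averaged 782 ± 89.3 TPM and Jun 302 ± 38.1 TPM, whereas Fos stood at 32.7 ± 9.38 TPM and Fosb at 0.64 TPM. Egr1 had 619, 2076, 746, 874, 686 and 934 counts and was highest in replicate 2. Of the 15 glucocorticoid and immediate early genes 8 were highest in replicate 2, against 3639 of all 13545 genes with a mean of 10 or more. Over the 14 with a mean of 100 or more the CV ranged from 7.11% for Klf9 to 55.1% for Egr1, with a median of 12.3%, and Klf9 had 3004, 3038, 3372, 2897, 2846 and 2771 counts.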
